A study of Mus musculus with 7 samples.

Results

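Oct1 and Oct4 peaks were examined at 10 genes of the cardiac and blood-vessel mesoderm, namely Kdr, Etv2, Tal1 and Gata2 of the blood and vessel lineages and Gata4, Gata6, Nkx2-5, Tbx5, Isl1 and Hand2 of the heart. The genes were chosen by their known roles in lateral mesoderm, out of 21887 protein-coding genes, and every peak touching the gene or lying up to 10 kb from it, and then up to 50 kb, was collected from 4 peak lists. The lists came from chromatin immunoprecipitation and sequencing (ChIP-seq) of Oct1 (gene Pou2f1) in undifferentiated parental mouse embryonic stem cells (ESCs), of Oct4 (gene Pou5f1) in the same kind of cells, and of Oct1 in parental cells at day 3 and day 6 of differentiation towards mesoderm. All 4 groups were of the parental genotype and held 1 library each, so no difference between groups can be set against replicate error. Differentiation used N2B27 medium with Bmp4 for 2 days and then a DMEM-based medium with Rspo3 and LDN-193189, a BMP receptor inhibitor, for 4 days. Per the labels it followed a protocol of Chal et al., which is known for presomitic mesoderm, the source of somites and skeletal muscle. The study also sequenced inputs at each stage, which were not analysed here. Bound positions were measured and expression was not, so whether the cultures held cells that use these genes, and in which cells of a culture a site was bound, cannot be told from the lists.

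In the embryo, lateral mesoderm gives rise to the heart, the vessels and the blood. Kdr encodes the receptor for the vascular growth factor VEGF and marks the progenitors of vessel and blood cells, in which the ETS factor Etv2 acts early and the basic helix-loop-helix factor Tal1 is needed for blood to form. GATA factors, T-box factors and the homeodomain proteins Nkx2-5 and Isl1 form a network of regulators in the cardiac progenitors. Oct1 is present in most cell types and Oct4 maintains pluripotency, and the POU domain of both recognises octamer letters.

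Within 10 kb, the 10 genes held Oct1 or Oct4 peaks about as often as genes in general did. In ESCs, 4 of 10 (Kdr, Gata4, Gata2 and Tbx5) had an Oct1 peak, against 35.2% of protein-coding genes, and 3 of 10 (Gata2, Tbx5 and Isl1) had an Oct4 peak, against 40.2%. At day 3, 2 of 10 (Gata6 and Isl1) had an Oct1 peak, against 24.6%, and at day 6 it was 4 of 10 (Kdr, Gata6, Gata2 and Isl1), against 41.5%. Within 50 kb the numbers were 7 for ESC Oct1 (background 58.7%), 7 for ESC Oct4 (62.5%), 4 for day 3 (41.5%) and 7 for day 6 (57.9%). With 10 genes, each gene moves a share by 10 percentage points, and none of these counts stands apart from its background by as much as 2 genes. With only the higher-scoring 50% of day 6 peaks, 0 of 10 genes had a peak within 10 kb, against 25.0% of protein-coding genes, and 2 of 10 within 50 kb, against 39.9%. The bodies of the 10 genes had a median length of 14.2 kb, from 2.89 kb for Etv2 to 88.7 kb for Tbx5, beside 17.2 kb for all protein-coding genes.

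**Figure D1:**
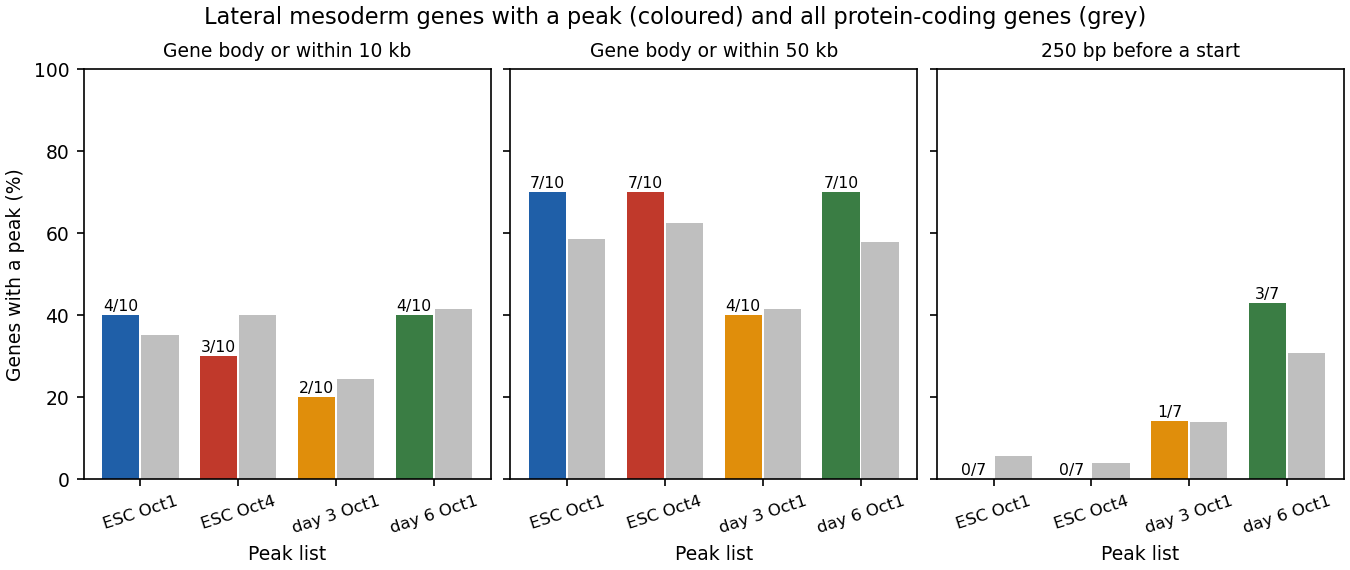
Share of genes with a listed peak (percent, bars from 0) for the 10 lateral mesoderm genes (coloured, with the number of genes above the bar) and for all protein-coding genes (grey), by peak list and for 3 windows. In the 10 kb window the members stand at 40.0% against 35.2% for ESC Oct1, 30.0% against 40.2% for ESC Oct4, 20.0% against 24.6% at day 3 and 40.0% against 41.5% at day 6.

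The lists that held a gene differed from gene to gene. Within 10 kb, 6 of the 10 genes had a peak in at least 1 list (all protein-coding genes 63.5%) and none had a peak in all 4 (9.18%). Tal1, Etv2, Nkx2-5 and Hand2 had none in any list, as did 36.5% of protein-coding genes. Gata6 had Oct1 peaks at day 3 and day 6 only, a pattern of 6.99% of genes, Tbx5 had peaks of both factors in ESCs and none later (10.1%), and Gata4 had ESC Oct1 peaks alone (2.60%). Kdr had Oct1 peaks in ESCs and at day 6 but not at day 3 (1.19%). Gata2 had the same with Oct4 in ESCs as well (7.13%), and Isl1 had every kind but ESC Oct1 (2.35%).

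**Figure D2:**
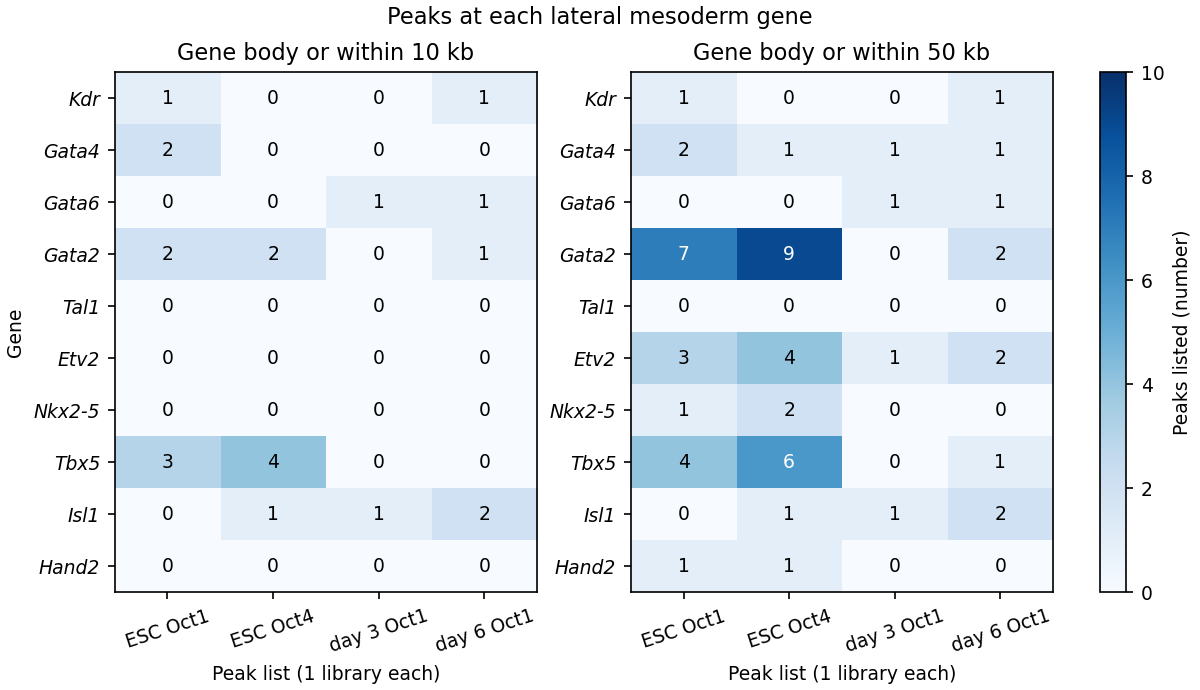
Number of listed peaks at each gene (rows) in each peak list (columns), for the window of 10 kb on either side of the gene (left) and of 50 kb (right). Gata2 and Tbx5 hold most of the ESC peaks, and Tal1 has 0 in every cell.

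At 3 of these genes the day 6 Oct1 peak lay over an annotated start. The RefSeq promoter table (GRCm38.p6) held 9 starts of 7 of the 10 genes, with Gata4, Gata6 and Tbx5 not among them. Of these 7 genes, 3 (Kdr, Gata2 and Isl1) had a day 6 peak over the 250 bp before a start, against 30.9% of the 17492 protein-coding genes with an entry. At day 3 it was Isl1 alone, against 14.0%. No ESC peak lay over a start of the 7 genes, where the background was 5.69% for Oct1 and 4.01% for Oct4. The 250 bp before each of the 3 covered starts follow as RefSeq sequence of GRCm38.p6, 5′ to 3′ in the direction of the gene, together with the other Gata2 start, which had no peak in any list. Capitals mark the letters GGCGCC, an element that Smad proteins of the BMP branch bind.

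Kdr, covered at day 6, chr5:75978456-75978705, minus strand: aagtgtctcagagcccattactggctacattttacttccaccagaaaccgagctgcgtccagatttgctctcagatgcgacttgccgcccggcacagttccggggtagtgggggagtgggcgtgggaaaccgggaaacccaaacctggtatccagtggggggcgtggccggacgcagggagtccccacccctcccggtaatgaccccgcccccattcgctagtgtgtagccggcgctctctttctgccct
Gata2 downstream start, covered at day 6, chr6:88198414-88198663, plus strand: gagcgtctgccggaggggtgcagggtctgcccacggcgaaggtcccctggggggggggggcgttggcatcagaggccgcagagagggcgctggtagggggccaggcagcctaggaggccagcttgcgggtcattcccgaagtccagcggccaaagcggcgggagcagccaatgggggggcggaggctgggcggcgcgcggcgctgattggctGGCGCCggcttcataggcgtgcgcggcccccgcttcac
Gata2 upstream start, not covered, chr6:88193641-88193890, plus strand: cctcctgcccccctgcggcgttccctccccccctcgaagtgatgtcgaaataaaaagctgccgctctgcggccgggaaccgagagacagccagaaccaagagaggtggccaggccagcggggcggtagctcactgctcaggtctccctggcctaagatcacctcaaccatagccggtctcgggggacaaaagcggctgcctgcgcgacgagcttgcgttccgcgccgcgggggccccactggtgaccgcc
Isl1, covered at day 3 and day 6, chr13:116309689-116309938, minus strand: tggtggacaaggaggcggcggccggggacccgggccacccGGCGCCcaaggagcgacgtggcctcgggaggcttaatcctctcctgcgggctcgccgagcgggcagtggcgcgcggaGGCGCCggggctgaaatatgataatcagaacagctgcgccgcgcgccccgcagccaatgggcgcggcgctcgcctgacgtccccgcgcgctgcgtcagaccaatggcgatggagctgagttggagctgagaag

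These stretches were rich in G and C. GC content was 61.6% for Kdr, 74.0% for the downstream and 67.2% for the upstream Gata2 start, and 71.2% for Isl1, beside a median of 52.4% over all 32851 promoters in the table and of 64.8% over the 6997 of them with a day 6 peak. The number of CG pairs was 16, 24, 22 and 33 in the same order, against medians of 6 and 21. The starts of the other genes, none of them covered, had a GC content between 48.8% at the upstream Tal1 start and 62.8% at the downstream one, with Hand2 and Nkx2-5 at 49.2%.

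Exact letters were searched on both strands in the 250 bp before each start. None of the 9 starts held the octamer ATGCAAAT, which 1.60% of all promoters held, and which stood in 5.94% of promoters under an Oct1 peak in ESCs, 1.98% under an Oct4 peak, 3.42% under a day 3 peak and 1.40% under a day 6 peak. None held ATGCATAT, as in paired sites of POU factors (0.718% of all promoters), or the palindromic Smad element GTCTAGAC (0.167%). GGCGCC occurred once before the downstream Gata2 start, at bases 33 to 38 before it, at 2 places before Isl1 (bases 128 to 133 and 205 to 210) and once before Hand2. It was found in 9.59% of all promoters, 7.53% of those with an ESC Oct1 peak, 6.29% of those with an ESC Oct4 peak, 20.8% of those with a day 3 peak and 22.5% of those with a day 6 peak. The median GC content was 52.4% over all promoters, 55.6% for those with an ESC Oct1 peak, 56.0% with an ESC Oct4 peak, 65.2% with a day 3 peak and 64.8% with a day 6 peak. What the GC content contributes to these shares was not tested. The GATA letters AGATAA occurred once before Hand2 and once before the upstream Tal1 start, and in 9.99% of all promoters. These matches describe letters only. The peaks were wider than 250 bp, so letters elsewhere under a peak were not searched.

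Among the blood and vessel genes, Kdr (gene ID 16542; chromosome 5, 75932827 to 75979072, GRCm38) had 2 Oct1 peaks at opposite ends of the gene. The authors' score, a whole number per peak without a stated unit, is given here as the rank within its own list and as a percentile (100 for the highest score). The ESC peak (75933481 to 75934070) ranked 5785 of 17709 (percentile 66.1) and lay 44.7 kb from the annotated start. The day 6 peak (75978271 to 75978770) spanned the start, with its midpoint 0.0650 kb away, and ranked 6247 of 7758 (percentile 19.4). Neither overlapped a peak of another list, and Kdr had no Oct4 or day 3 peak within 50 kb. The ESC and day 6 Oct1 peaks of Kdr thus lay at different places.

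Gata2 (gene ID 14461; chromosome 6, 88193891 to 88207032), which encodes a zinc-finger factor of blood progenitors and endothelium, had more peaks within 50 kb than any other of the 10 genes. In ESCs, 7 Oct1 peaks and 9 Oct4 peaks lay within 50 kb, and none of them touched the gene. All 7 Oct1 peaks lay beyond the end of the gene, between 2.96 kb and 48.1 kb away, and each overlapped an Oct4 peak. The strongest Oct4 peak (88209951 to 88210470, 2.92 kb from the gene, rank 2119 of 22817, percentile 90.7) met an Oct1 peak of percentile 43.7. The strongest Oct1 peak (88226141 to 88227140, rank 2906, percentile 83.6) met an Oct4 peak of percentile 87.0, and there the midpoint was nearer to Dnajb8, a chaperone gene 3.38 kb away, than to Gata2. Of the 7 sites, Gata2 was the nearest protein-coding gene at 1, Dnajb8 at 4 and the elongation factor gene Eefsec at 2.

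At day 3 no Oct1 peak was listed within 50 kb of Gata2. At day 6 a peak (88198341 to 88198930, rank 5220, percentile 32.7) lay over the downstream of the 2 starts, 0.0290 kb from it, where neither ESC list had one. The annotated starts are 4.77 kb apart, and Gata2 is known to use an upstream promoter in blood progenitors and a downstream one more widely. The other day 6 peak (88255091 to 88255620, percentile 11.4), 48.1 kb past the gene and 1.98 kb from Eefsec, overlapped an ESC Oct1 peak of percentile 1.78 and an ESC Oct4 peak of percentile 41.1.

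Tal1 (gene ID 21349; chromosome 4, 115056426 to 115071755) had no peak within 50 kb in any list. Etv2 (gene ID 14008; chromosome 7, 30633616 to 30636509) had none within 10 kb, although it lies among many genes. Between 10 and 50 kb there were 7 ESC peaks (3 of Oct1 and 4 of Oct4), 1 at day 3 and 2 at day 6, and at all 10 the nearest protein-coding gene was another one. The strongest of the ESC Oct1 peaks (30614931 to 30615460, percentile 92.0) lay 1.78 kb from Cox6b1, a subunit gene of cytochrome c oxidase. The 2 day 6 peaks lay at Kmt2b, a histone methyltransferase gene (30588401 to 30589290, rank 813, percentile 89.5), and at Rbm42, an RNA-binding protein gene (30649861 to 30650460, rank 1464, percentile 81.1). The Kmt2b site also held the day 3 peak (percentile 75.9).

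**Figure D3:**
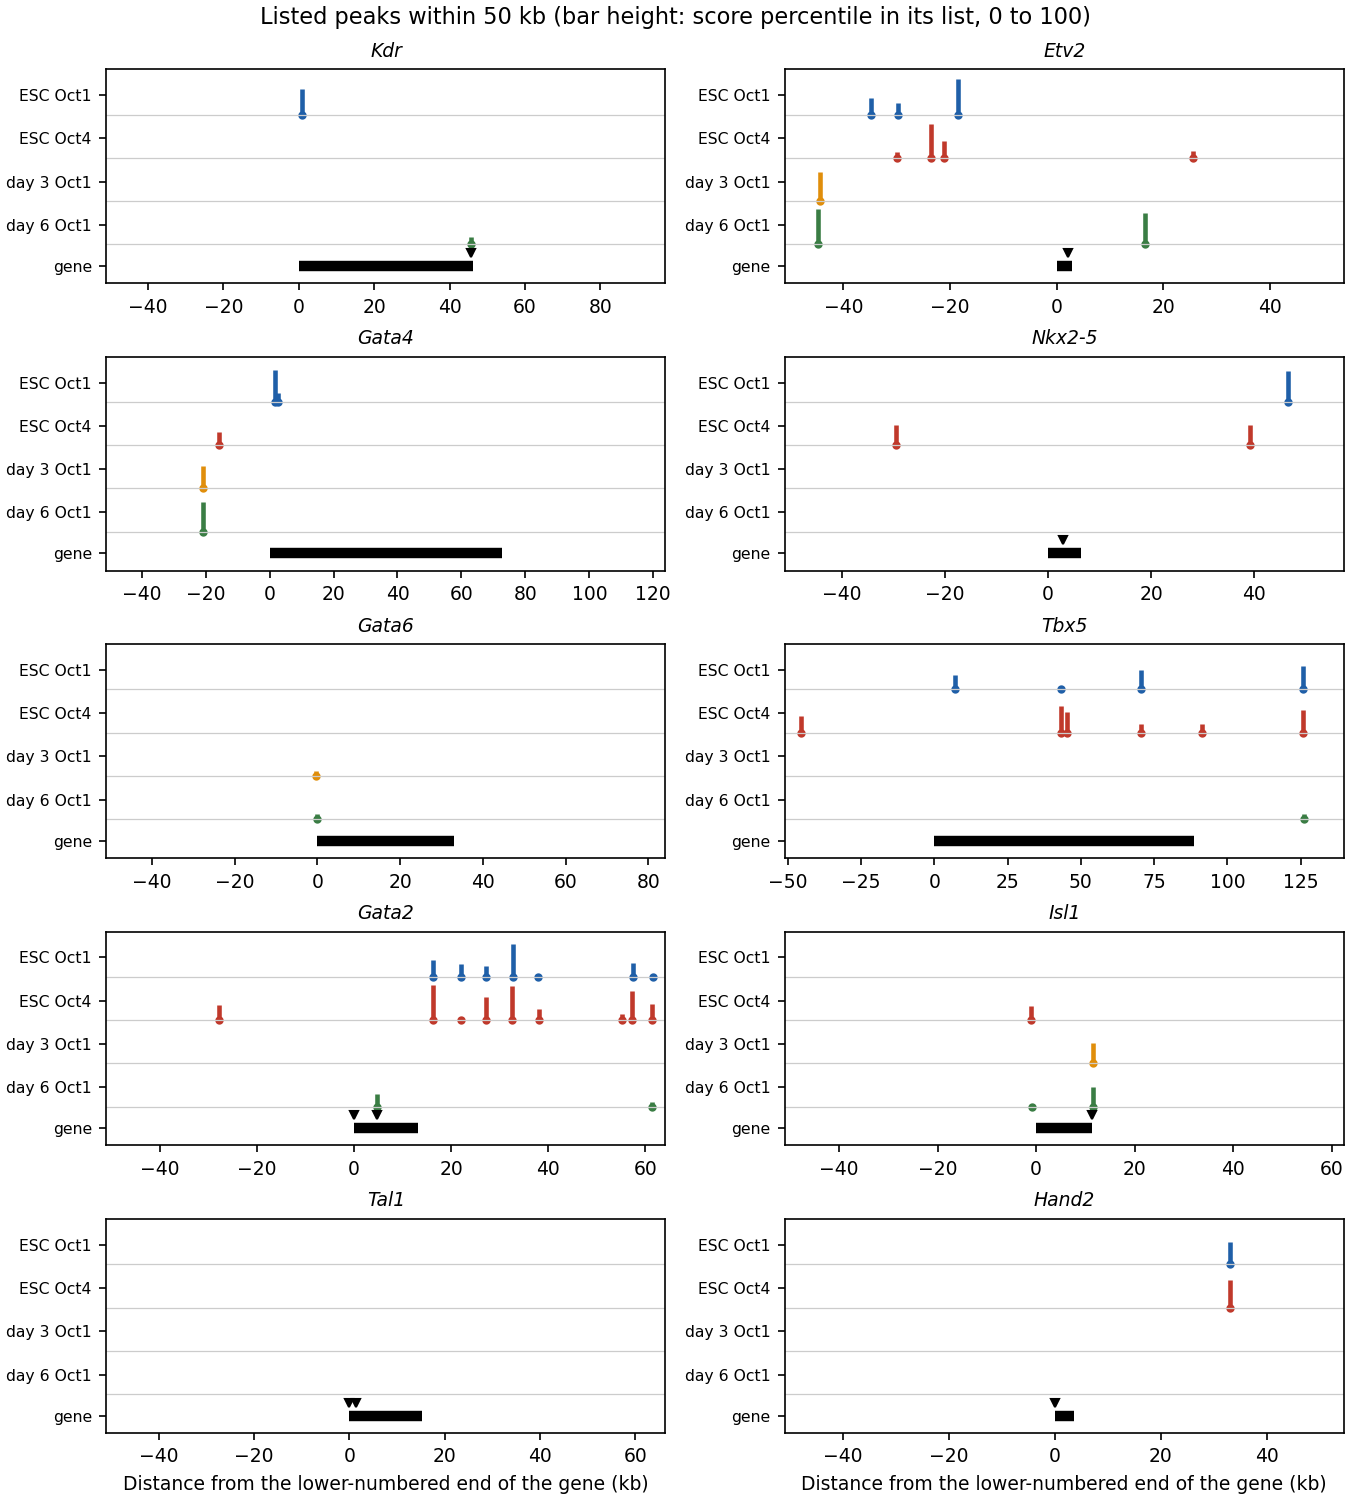
Listed peaks within 50 kb of each gene, 1 panel a gene, plotted by distance (kb) from the lower-numbered end of the gene. Bars rise from a dot at the peak's midpoint to its score percentile, black bars are gene bodies and triangles are annotated starts. Day 6 bars stand over triangles at Kdr, Gata2 and Isl1, while no ESC bar stands over a triangle. Gata4, Gata6 and Tbx5 have no triangle because no start of theirs was in the table.

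Among the heart genes, the GATA factors differed from each other. Gata4 (gene ID 14463; chromosome 14, 63198914 to 63271712) held 2 ESC Oct1 peaks inside the gene near its lower-numbered end. The first (63200231 to 63200780) ranked 3200 (percentile 81.4), the highest percentile of any ESC Oct1 peak within 10 kb of the 10 genes, and the second (63201311 to 63202070) had percentile 22.6. Neither had an Oct4, day 3 or day 6 peak on it. The later Oct1 peaks in the region lay 20.6 kb away in Fdft1, which encodes squalene synthase, with percentile 58.9 at day 3 (63177771 to 63178290) and 77.5 at day 6 (63177651 to 63178320). An ESC Oct4 peak of percentile 32.8 lay in Neil2, a DNA repair gene, 15.4 kb from Gata4.

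Gata6 (gene ID 14465; chromosome 18, 11052510 to 11085636) had no peak in either ESC list within 50 kb. At its lower-numbered end, overlapping Oct1 peaks were listed at day 3 (11051911 to 11052440, rank 4286 of 4867, percentile 11.8) and at day 6 (11051971 to 11052660, rank 6804, percentile 12.2). Both were among the weaker peaks of their lists.

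Isl1 (gene ID 16392; chromosome 13, 116298270 to 116309688), a LIM homeodomain gene of the second heart field, likewise held Oct1 peaks in differentiating cells and not in ESCs. Overlapping Oct1 peaks covered the start at day 3 (116309561 to 116310090, rank 2284, percentile 52.9) and at day 6 (116309491 to 116310070, rank 3900, percentile 49.6). At the other end of the gene, a day 6 Oct1 peak (116297171 to 116297700, percentile 4.72) overlapped an ESC Oct4 peak (116296971 to 116297520, percentile 36.7), which had no ESC Oct1 peak. The day 6 peak at that end ranked 7390 of 7758.

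Tbx5 (gene ID 21388; chromosome 5, 119796514 to 119885220), a T-box gene of the left heart and the forelimb, had its nearby peaks in ESCs only. In ESCs 3 Oct1 peaks and 3 Oct4 peaks lay inside the gene and a 4th Oct4 peak lay 2.23 kb beyond its higher-numbered end, and 2 of the Oct1 peaks overlapped Oct4 peaks. At the first of these (119839381 to 119840010) the Oct1 percentile was 6.08 and the Oct4 percentile 68.4. At the second (119866881 to 119867440) they were 50.1 and 23.6. No day 3 or day 6 peak lay within 10 kb. A site 36.6 kb beyond the higher-numbered end (119921771 to 119922980 in the ESC Oct1 list, percentile 59.2) also held an Oct4 peak (percentile 59.1) and a day 6 Oct1 peak (percentile 12.2), with none listed at day 3.

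Nkx2-5 and Hand2 had ESC peaks at a distance only. Nkx2-5 (gene ID 18091; chromosome 17, 26838664 to 26844988) had an ESC Oct1 peak 39.9 kb away (percentile 78.7), nearer to Kifc5b, and ESC Oct4 peaks 29.2 kb and 32.5 kb away on either side (percentile 52.7 each), with no overlap among them. The Oct4 peak at 29.2 kb was nearer to Bnip1, 16.7 kb from its midpoint, and the one at 32.5 kb was nearest to Nkx2-5. Hand2 (gene ID 15111; chromosome 8, 57320983 to 57324517) had 1 site, 29.2 kb past the gene, with an Oct1 peak of percentile 58.6 (57353671 to 57354350) and an overlapping Oct4 peak of percentile 71.4. Neither gene had a day 3 or day 6 peak within 50 kb.

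The 5 day 6 peaks within 10 kb of these genes had percentiles from 4.72 to 49.6, so none was in the upper 50% of its list. The peak at 49.6, over the Isl1 start, lay near the middle of the list, and the other 4 were at 32.7 or below. By gene, 0 of 4 had a best peak above percentile 50, beside 60.1% of the 9087 protein-coding genes with a day 6 peak within 10 kb, whose median was 59.6. The 3 day 6 peaks above percentile 50 within 50 kb all lay at neighbours, namely Fdft1, Kmt2b and Rbm42. In the other lists 3 of 4 genes (ESC Oct1, all genes 68.9%), 2 of 3 (ESC Oct4, 66.3%) and 1 of 2 (day 3, 60.7%) had a best peak above percentile 50. These are descriptions of single libraries, and no test across libraries was possible.

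**Figure D4:**
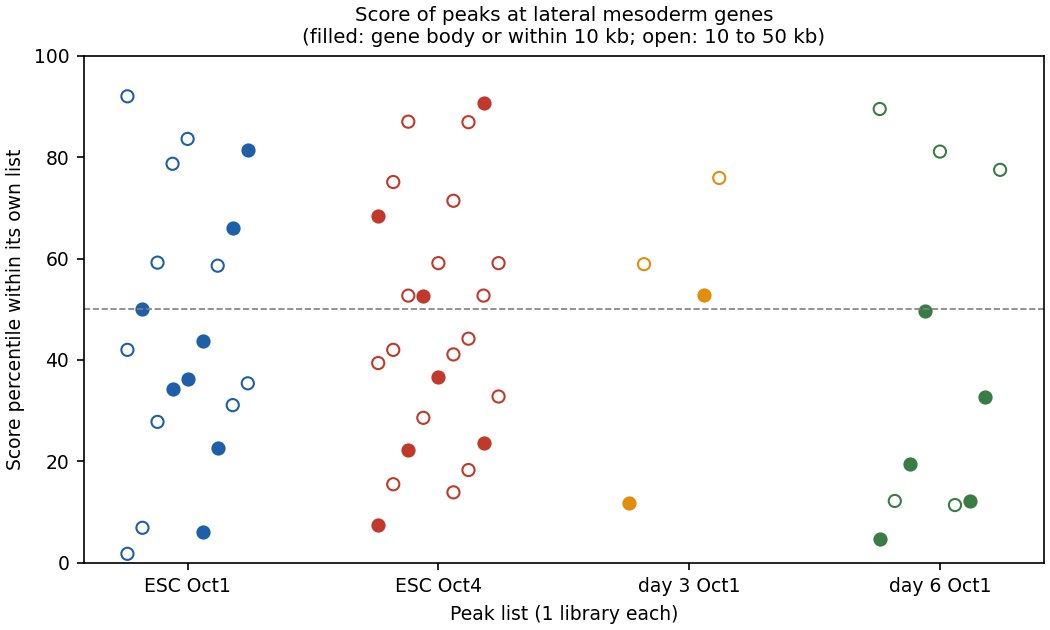
Score percentile within its own list (vertical axis, 0 to 100) of each listed peak at the 10 genes, by peak list. Filled points lie in the gene body or within 10 kb, open points between 10 and 50 kb, and the dashed line marks percentile 50. The 5 filled day 6 points lie at or below 49.6.

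Overlap between lists at these genes was set beside that of all peaks. Of 19 ESC Oct1 peaks within 50 kb, 12 overlapped an ESC Oct4 peak (63.2%, exact Clopper-Pearson 95% interval 38.4 to 83.7), beside 59.1% of all ESC Oct1 peaks. None of the 19 overlapped a day 3 peak, for which the exact upper bound is 17.6% and the limit of 3 counts 15.8%, beside 8.88% of all. At day 6 it was 2 of 19 (10.5%, 1.30 to 33.1), beside 6.66%. Of 24 ESC Oct4 peaks, 3 overlapped a day 6 Oct1 peak (12.5%, 2.66 to 32.4), beside 4.39%. All 4 day 3 peaks overlapped a day 6 peak (interval 39.8 to 100), beside 58.5%, and 4 of 10 day 6 peaks overlapped a day 3 peak (40.0%, 12.2 to 73.8), beside 36.6%. The sites listed at both differentiation times were those at Gata6, Isl1, Fdft1 and Kmt2b, and none of them had an ESC peak. For 0 of 4 the exact upper bound is 60.2%, beside 32.3% of all day 3 peaks that overlapped an ESC Oct1 peak and 20.0% that overlapped an ESC Oct4 peak. The intervals cover the counting of peaks alone, and peaks near 1 gene are not independent.

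The window of 10 kb took in an ESC Oct1 peak 8.55 kb from Gata2 as its farthest, and the nearest peak outside it was the day 6 peak at Rbm42, 13.4 kb from Etv2. For the 50 kb window the farthest peak inside lay 48.1 kb from Gata2, and the nearest outside were an ESC Oct1 peak 52.2 kb from Tbx5 and an ESC Oct4 peak 52.3 kb from Gata4.

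Of a wider list of 22 cardiac genes, 11 (background 35.2%) had an Oct1 peak within 10 kb in ESCs and 10 an Oct4 peak (45.5%, background 40.2%). At day 3 it was 4 genes (18.2%, background 24.6%) and at day 6 it was 8 (36.4%, background 41.5%). The highest ESC Oct1 percentiles belonged to Hand1 (91.1), the partner of Hand2 in heart formation, Mesp2 (89.4, nearer to Anpep) and the troponin gene Tnnt2 (88.5, nearer to Lad1). For Oct4 they belonged to Tnnt2 (97.8), Hand1 (93.1) and Tbx2 (93.1, nearer to Bcas3). The genes with day 3 peaks were Tbx2 (percentile 49.9), Tbx3 (62.5), Foxf1 (79.5) and Irx3 (38.8). These 4 also had day 6 peaks, with best percentiles of 11.0, 20.4, 37.3 and 37.6. At day 6 they were joined by Tbx20 (8.90), Tbx1 (8.08), Smarcd3 (47.3) and Tnnt2 (11.4), so that all 8 again had a best peak in the lower 50% of the day 6 list.

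Of 23 further blood and endothelial genes, 12 had an Oct1 peak (52.2%) and 15 an Oct4 peak (65.2%) within 10 kb in ESCs, and 7 (30.4%) and 5 (21.7%) had an Oct1 peak at day 3 and at day 6, against the same backgrounds. These genes had a median length of 33.4 kb, beside 9.86 kb for the cardiac list and 17.2 kb for all genes, and the part of gene length in the counts was not tested. Flt1 and Flt4, which encode the VEGF receptors related to Kdr, had peaks in all 4 lists, as did the blood regulators Runx1 and Gata3. Tbx2 of the cardiac list did as well, and 9.18% of all protein-coding genes had a peak in all 4 lists within 10 kb. This was counted by gene and not by site. At Flt4, the day 3 peak (chromosome 11, 49636431 to 49636960) and the day 6 peak (49609371 to 49610000) did not overlap. The highest ESC Oct1 percentiles were 92.7 for the endothelial adhesion gene Pecam1, 92.1 for Flt4 and 88.5 for the ETS factor gene Fli1, and the highest for Oct4 were 98.3 for Flt4, 97.4 for Flt1 and 97.1 for Pecam1. At day 3 the best percentiles were 92.2 for Flt1, 28.5 for Flt4, 12.9 for Fli1, 4.07 for Erg, 86.4 for Runx1, 69.7 for Gata3 and 28.2 for Vegfa. At day 6 they were 5.91 for Flt1, 12.4 for Flt4, 47.8 for Runx1, 14.9 for Gata3 and 34.7 for Sox18, where the peak was nearer to Tcea2. Across both wider lists, every gene with a day 6 peak had its best one below percentile 50, as the 4 genes above did, where 60.1% of all genes with such a peak had one above it.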

How the data were processed

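The authors' deposited peak lists, 1 per ChIP library, gave chromosome, start, end, name and a whole-number score, without a header, and were not pooled. Per the submitters' processing notes, reads were aligned with Novoalign 3.8.2 and the build was mm10, which is GRCm38. The peak caller, its threshold, the use of the inputs and the meaning of the score are not given in the sources used here. The score was therefore used as a rank within a list. Without read counts in the lists, the depth of each library is unknown.

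Genes and the 250 bp before their starts came from RefSeq tables of GRCm38.p6 (21887 protein-coding genes on 21 chromosomes, 17492 of them with a start), which give no exons. All 10 symbols were matched. A gene had a peak when at least 1 bp lay in its body or within 10 kb or 50 kb. Counts used scipy 1.17.1, pandas 2.3.3 and numpy 2.4.6 under Python 3.11.15, were tested on simulated data, and were identical to those of bedtools 2.31.1 in all 4 lists. Figures were drawn with matplotlib 3.10.9. The genes and lists were chosen with earlier results of these data known, and the count over starts was added after the files were seen. All 10 genes were named. Of the wider lists, genes with a day 3 or day 6 peak were named, and the 3 with the highest ESC percentile for each factor.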

Additional observations from a re-analysis of the deposited data

How the results depend on the processing

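Of 52 recomputed counts, 39 stayed within 1.5 times of the reported one. The others, given as numbers of the 10 genes, were lower except with a wider window. In lists shortened to the 4867 highest scores, 1 gene (ESC Oct1), 1 (ESC Oct4) and 1 (day 6) had a peak within 10 kb, and 4, 2 and 3 within 50 kb. The shares of all protein-coding genes were then 16.3%, 14.7% and 30.2%, and 33.6%, 31.4% and 46.0%. With the higher-scoring 50% of each list, 1 gene at day 3 (all genes 15.0%) and 0 at day 6 (25.0%) had a peak within 10 kb, and 2 at day 6 (39.9%) within 50 kb. Counting the gene body only left 1 gene for ESC Oct4 (all genes 28.0%) and 1 at day 3 (17.7%). At day 3, the 50 kb count became 7 within 100 kb (53.3%) and 2 when the gene had to be the nearest one (18.9%). These shares of all genes were added after the data were seen. The cause was not tested, except that stricter rules lower counts by construction. Among the 19087 genes no longer than Tbx5, the 10 kb backgrounds were 33.2% (ESC Oct1), 38.1% (ESC Oct4), 23.7% (day 3) and 40.8% (day 6). Depth is unknown, and a peak missing from a list was not detected at the authors' threshold, which does not show that the site was unbound. No paired analysis was possible because each group held 1 library.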

Other observations

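Between 50 and 100 kb from the genes, 8 sites held a peak at percentile 90 or above of its list, a limit chosen after the values were seen. A site 69.6 kb before Gata2 (chromosome 6, 88123351 to 88124290 in the ESC Oct4 list) ranked 220 of 22817 for ESC Oct4 (percentile 99.0), 851 of 17709 for ESC Oct1 (95.2) and 6957 of 7758 at day 6 (10.2), with no day 3 peak. Its nearest protein-coding gene was Rpn1, a subunit gene of the oligosaccharyltransferase, 18.5 kb away. The strongest ESC Oct1 peak within 100 kb of any of the 10 genes lay 92.8 kb beyond the higher-numbered end of Tbx5 (chromosome 5, 119978041 to 119978770, rank 208, percentile 98.8), met an ESC Oct4 peak of percentile 87.4 and had no later Oct1 peak. On the other side of Tbx5, at 89.5 kb and 21.9 kb from Tbx3, a site was listed for ESC Oct1 (percentile 97.1), ESC Oct4 (97.1) and day 3 Oct1 (50.1) and not at day 6. The site nearest to Psenen and U2af1l4, 69.7 kb from Etv2 (chromosome 7, 30562971 to 30563910 in the ESC Oct1 list), was in every list, at percentile 96.2 for ESC Oct1, 98.7 for ESC Oct4, 32.4 at day 3 and 86.8 at day 6. A site at Lin37, 73.6 kb from Etv2 (30559451 to 30559990), had percentile 94.0 for ESC Oct1, 67.3 for ESC Oct4 and 72.5 at day 3, with no day 6 peak. The other 3 sites were listed at both differentiation times and in neither ESC list. They lay at Atp4a, 80.7 kb from Etv2 (30717171 to 30717780, percentile 90.7 at day 3 and 31.4 at day 6), at Arhgap33, 98.1 kb from Etv2 (30534421 to 30535470, 37.3 at day 3 and 90.7 at day 6), and at Phf1, 87.8 kb from Nkx2-5 (chromosome 17, 26932761 to 26933530, 66.7 at day 3 and 93.8 at day 6). Which gene, if any, these sites act on is not known from the lists.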
